A study of Homo sapiens with 18 samples.

Results

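The 52 genes described here are genes of DNA repair, of 23106 genes in the count tables, chosen by name for their known function. The rule uses no measured value, but the list was drawn up with earlier results of these data known. They comprise 13 genes of homologous recombination, 11 of the Fanconi anaemia (crosslink repair) pathway, 6 of mismatch repair, 10 of base excision and single-strand break repair, 5 of end joining and 7 of damage sensing and checkpoint signalling. PolyA+ RNA was sequenced from 3 established human cell lines, each in normoxia and in hypoxia, with 3 samples in each of the 6 groups and 18 in all, to find which genes respond to low oxygen. HKC-8 is labelled as a proximal tubule line of the kidney, RCC4 as a kidney cancer line, here in its form with VHL put back (RCC4+VHL), and HepG2 as a hepatocellular cancer line. The labels give 0.5% oxygen for 16 h for hypoxic HKC-8 and HepG2 cells and 1% for 24 h for hypoxic RCC4 cells, whereas the text of the study gives 0.5% for 16 h for all 3 lines, and the sample titles of hypoxic HKC-8 cells read 0.1%. The titles of normoxic HKC-8 cells give 21% oxygen. All 6 HKC-8 libraries are labelled as run on a pair of lanes and all 6 RCC4 libraries as replacements, so that neither separates normoxia from hypoxia. Each line is 1 established line, and the sources used here state that the experiments were done in triplicate but not whether the 3 samples came from separate cultures, so the p-values below measure the spread between these samples, which may be technical.

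Total counts per sample ranged from 40915980 to 97984260 and were highest in HKC-8 cells. Levels below are CPM, counts scaled to library size, after TMM scaling of all 18 samples together, 3 counts in a library equalled 0.0306 to 0.0733 CPM before that scaling, and the members had at least 45 counts in every library except for NEIL1 in RCC4 cells, which had 0 in all 6 libraries. All 8 liver markers examined were above 1 CPM in every HepG2 sample, with a summed level of 33361 to 41987 CPM. In HKC-8 cells the kidney transcription factor PAX8 was measured at 165 CPM in normoxia, but the proximal tubule genes LRP2, CUBN, AQP1 and SLC34A1 were all below 0.5 CPM in both conditions, so that the tubule identity in the label rests on few of its defining genes. Of the 4 blood and endothelium markers examined, PTPRC, the pan-leukocyte gene, was at most 0.0296 CPM in every group, but the others were not all absent. CD68 had a mean of 6.44 CPM in normoxic HKC-8, 11.6 in normoxic RCC4 and 49.4 in normoxic HepG2 cells. CDH5 was at 1.84 CPM in normoxic HKC-8 and PECAM1 at 1.37 in normoxic HepG2 cells, and each was lower in the other lines. A list of 20 genes known to be induced by hypoxia was induced in full in HKC-8 and HepG2 cells and in the 18 members tested in RCC4 cells. That list too was drawn up with earlier results of these data known, so it is no independent check.

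Homologous recombination copies the lost sequence of a broken chromosome from the sister chromatid, and mostly serves cells in S and G2 phase. End joining ligates broken ends directly in any phase. The Fanconi pathway unhooks crosslinks between strands ahead of the replication fork, mismatch repair removes replication errors, and base excision repair replaces single damaged bases through a nick that poly(ADP-ribose) polymerases detect. The kinases ATM and ATR sense breaks and stalled forks and pass the signal to CHEK2 and CHEK1. Many of these genes are transcribed as part of the cell cycle programme through E2F and related factors, and the hypoxia-inducible factors (HIF) bind a short core motif that is present in a large part of all promoters.

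The sequences before the RefSeq start of 4 of these genes are shown because BRCA2 and ATM rose in all 3 lines while FANCE and RAD54L were among the members that fell most, and because the letters of the motifs can be compared across them. The stretches are RefSeq promoters located in GRCh37 by an exact match, limited to bases before the RefSeq start that no annotated UTR covers, all on the plus strand and written 5′ to 3′. By the gene places of the GRCh37 annotation, which can start earlier, the BRCA2 and RAD54L stretches lie inside the gene. The ATM stretch runs past the annotated start of the gene, and the FANCE stretch ends before it. Capitals mark the HIF core (ACGTG or GCGTG), the E2F-type letters (TTCCCGC, TTTGGCGC or TTTCGCGC) and the CHR element of cell cycle genes (TTTGAA), each on either strand.
BRCA2, chr13:32889501-32889641: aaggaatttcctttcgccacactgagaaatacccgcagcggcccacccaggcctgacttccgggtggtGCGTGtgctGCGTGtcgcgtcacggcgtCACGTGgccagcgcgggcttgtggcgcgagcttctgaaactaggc
ATM, chr11:108093544-108093793: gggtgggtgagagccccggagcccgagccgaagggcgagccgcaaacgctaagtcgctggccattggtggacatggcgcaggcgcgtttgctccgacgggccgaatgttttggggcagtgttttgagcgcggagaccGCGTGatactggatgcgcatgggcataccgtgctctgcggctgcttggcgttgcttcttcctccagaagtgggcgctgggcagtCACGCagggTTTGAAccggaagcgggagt
FANCE, chr6:35419865-35420114: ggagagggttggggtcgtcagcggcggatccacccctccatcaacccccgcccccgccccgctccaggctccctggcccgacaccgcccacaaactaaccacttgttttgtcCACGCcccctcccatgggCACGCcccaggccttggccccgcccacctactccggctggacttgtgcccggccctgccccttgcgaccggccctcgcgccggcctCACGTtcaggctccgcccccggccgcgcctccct
RAD54L, chr1:46713110-46713359: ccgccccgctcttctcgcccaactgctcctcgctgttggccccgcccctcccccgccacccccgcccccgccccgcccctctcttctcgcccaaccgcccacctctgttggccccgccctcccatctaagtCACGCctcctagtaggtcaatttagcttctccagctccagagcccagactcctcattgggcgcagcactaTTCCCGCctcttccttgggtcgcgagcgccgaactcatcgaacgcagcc
In these stretches the HIF core letters occurred 4 times at BRCA2, 2 times at ATM, 3 times at FANCE and 1 time at RAD54L. At BRCA2 the letters CACGTG hold the core on both strands and are counted on each. The core letters were thus present both at genes that rose and at genes that fell. The E2F-type letters occurred 1 time at RAD54L, and the CHR letters 1 time at ATM. Over the full RefSeq windows of 250 bases before to 50 after the start, 47 of the 52 genes matched. Of these, 44.7% held E2F-type letters, against 10.1% of all 15257 promoters of the same length. HIF core letters were in 76.6% of the members and 56.3% of all promoters, and CHR letters in 8.51% and 12.1%. E2F-type letters were found in 7 of 12 homologous recombination, 6 of 10 Fanconi and 3 of 6 mismatch repair promoters, but in 0 of 6 of the damage sensing genes. A match of letters is a description and does not show that a factor binds there.

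DNA repair genes responded to hypoxia in both directions and mostly by less than 2-fold. Of the 52, 3 were induced and 7 repressed at an adjusted p under 0.05 (edgeR) in HKC-8 cells, where 11.2% of the 13536 genes tested were induced and 9.12% repressed. In RCC4 cells 14 of the 51 tested were induced and 13 repressed, against 25.9% and 24.2% of 12811 genes. In HepG2 cells 8 were induced and 15 repressed of 52, against 19.9% and 19.2% of 13623 genes. The members' shares were thus 5.77% induced and 13.5% repressed in HKC-8 cells, 27.5% and 25.5% in RCC4 cells, and 15.4% and 28.8% in HepG2 cells. Their median log2 fold change was -0.10 (HKC-8), 0.0015 (RCC4) and -0.11 (HepG2), beside 0.0036 (HKC-8), -0.0018 (RCC4) and -0.0044 (HepG2) for all genes tested. Among all of these changes only BRCA2 in RCC4 cells reached 2-fold, whereas the hypoxia-induced list had medians of 1.86 (HKC-8), 2.17 (RCC4) and 2.78 (HepG2). Of the 51 members tested in all 3 lines, 2 were induced in all of them (3.92%, against 3.81% of 11418 genes). In all 3 lines 0 were repressed (against 3.43%), and 14 were called in none (27.5%, against 28.6%). Calls in both directions, with 1 line or more induced and 1 or more repressed, were seen for 1 member (1.96%, against 5.97%). Repression in 2 lines or more was seen for 13 of the 51 (25.5%, against 14.3% of 11418 genes) and induction in 2 or more for 6 (11.8%, against 13.8%).

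The HKC-8 counts were the least settled. Normoxic and hypoxic HKC-8 samples numbered 2 deviated together (r = 0.453 across genes), as did those numbered 3 (r = 0.447). For number 1 (r = 0.109) samples of unlike numbers correlated as much, at up to 0.116. With the replicate number as a block 8 members were induced and 16 repressed, where 21% and 21.6% of all genes were. The 10 members called without the block were all among these 24. Leaving out 1 HKC-8 sample gave 0 induced and 2 repressed members without normoxic replicate 1, 2 and 1 without normoxic replicate 2, 3 and 8 without normoxic replicate 3, 0 and 1 without hypoxic replicate 1, 3 and 6 without hypoxic replicate 2, and 1 and 4 without hypoxic replicate 3. LIG3 was the 1 HKC-8 call of 10 that was kept in all 6 of these fits, against 23 of 27 in RCC4 and 17 of 23 in HepG2 cells. The heatmap of log2 fold changes shows the 3 lines side by side.

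**Figure D1:**
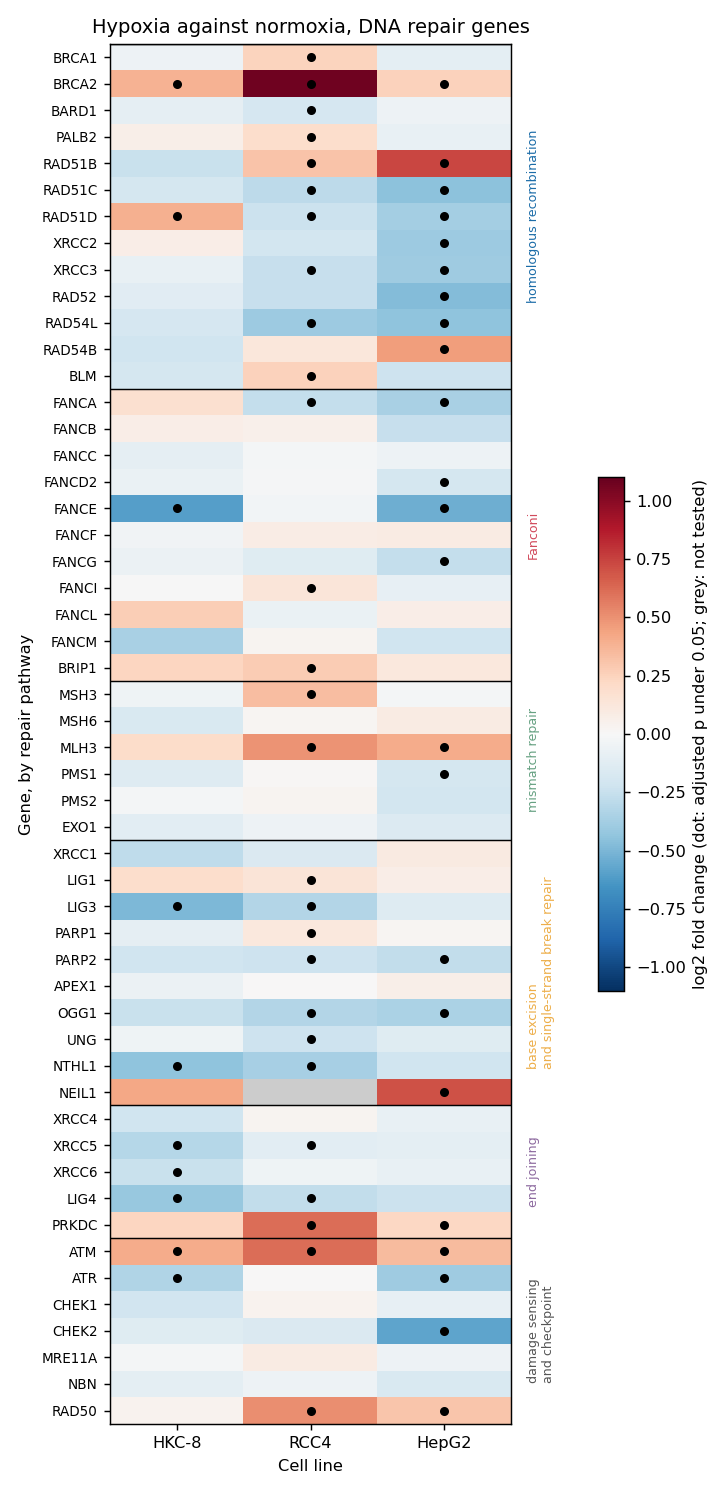
Log2 fold change in hypoxia (colour) of the 52 genes (rows, by pathway) in 3 cell lines (columns). Dots mark an adjusted p under 0.05, and grey marks NEIL1 in RCC4 cells, which was not tested; BRCA2 and ATM carry a dot in red in all 3 columns, and no row carries a dot in blue in all 3.

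The 13 homologous recombination genes had 2 induced and 0 repressed in HKC-8 cells, 5 and 5 in RCC4 cells, and 3 and 6 in HepG2 cells, and this set held both the largest rise of all members and several of the falls. Its median log2 fold change was -0.10 (HKC-8), -0.18 (RCC4) and -0.22 (HepG2). BRCA2, a tumour suppressor needed for strand exchange (chr13:32889223-32974405 in GRCh37, plus strand), rose in all 3 lines. Its level was 8.18, 8.70 and 8.07 CPM in normoxia and 17.7, 16.3 and 18.2 in hypoxia in RCC4 cells, a log2 fold change of 1.07 ± 0.079 (SE, adjusted p = 1.01e-10). The hypoxic samples lay at 2.10 times the normoxic level with no overlap. In HKC-8 cells BRCA2 measured 35.8, 35.9 and 35.5 CPM in normoxia and 47.6, 42.5 and 48.9 in hypoxia, a log2 fold change of 0.38 ± 0.084 (SE, adjusted p = 0.0148). In HepG2 cells it measured 20.2, 22.6 and 25.2 CPM in normoxia and 26.5, 29.0 and 25.5 in hypoxia, a log2 fold change of 0.25 ± 0.091 (SE, adjusted p = 0.0414). The groups did not overlap in either line, but the closest HepG2 samples, normoxic replicate 3 and hypoxic replicate 3, were nearly level. The HepG2 call was kept in 1 of 6 fits that left out a sample, with adjusted p = 0.00662 to 0.18, and the HKC-8 call in 2 of 6.

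RAD51B, RAD51C, RAD51D, XRCC2 and XRCC3, which form complexes that assist strand exchange, did not move together. RAD51D was the 1 member induced in one line and repressed in others. It measured 11.4, 12.1 and 12.1 CPM in normoxia and 14.9, 15.0 and 16.7 in hypoxia in HKC-8 cells, a log2 fold change of 0.39 ± 0.11 (SE, adjusted p = 0.032). In RCC4 cells it measured 18.5, 19.7 and 18.8 CPM in normoxia and 15.2, 16.1 and 17.0 in hypoxia (log2 fold change -0.24 ± 0.067 SE, adjusted p = 0.00549), and in HepG2 cells 11.9, 13.4 and 13.0 CPM in normoxia and 9.86, 9.55 and 10.1 in hypoxia (log2 fold change -0.37 ± 0.095 SE, adjusted p = 0.00685). The groups did not overlap in any of the 3 lines, but the HKC-8 call was kept in 2 of 6 fits that left out a sample. RAD51B went the other way. In HepG2 cells it measured 3.78, 3.20 and 3.44 CPM in normoxia and 6.12, 5.25 and 5.95 in hypoxia, a log2 fold change of 0.73 ± 0.13 (SE, adjusted p = 7.59e-04), the largest rise of any member in that line. It measured 5.10, 4.69 and 5.62 CPM in normoxia and 6.06, 6.89 and 6.06 in hypoxia in RCC4 cells (log2 fold change 0.31 ± 0.12 SE, adjusted p = 0.0284), a call kept in 3 of 6 fits that left out a sample, and 7.17, 6.67 and 7.85 CPM in normoxia and 6.18, 5.56 and 6.49 in hypoxia in HKC-8 cells, where the log2 fold change of -0.25 ± 0.13 (SE, adjusted p = 0.214) did not pass. RAD51C fell in RCC4 (log2 fold change -0.29 ± 0.077 SE, adjusted p = 0.00317) and HepG2 cells (log2 fold change -0.45 ± 0.072 SE, adjusted p = 2.80e-04), XRCC3 fell in the same lines (-0.26 and -0.39), and XRCC2 fell in HepG2 cells (log2 fold change -0.40 ± 0.087 SE, adjusted p = 0.00277). Opposite-strand exons of KLC1 cover 48.4% of the exonic bases of XRCC3, and the strand setting of the counting is not given in the sources used here.

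Genes of later steps of recombination also split. RAD54L, a motor protein that drives strand exchange, measured 40.1, 41.4 and 40.1 CPM in normoxia and 30.9, 29.8 and 30.9 in hypoxia in RCC4 cells, a log2 fold change of -0.40 ± 0.05 (SE, adjusted p = 5.37e-07). In HepG2 cells it measured 34.0, 32.8 and 32.3 CPM in normoxia and 24.1, 23.7 and 25.3 in hypoxia (log2 fold change -0.44 ± 0.069 SE, adjusted p = 2.54e-04). It fell in both lines without overlap, and opposite-strand exons of LRRC41 cover 25.9% of its exonic bases. In HKC-8 cells, where its level was 44.5, 47.9 and 46.8 CPM in normoxia and 45.2, 37.5 and 39.6 in hypoxia, the groups overlapped and the log2 fold change of -0.18 ± 0.092 (SE, adjusted p = 0.189) did not pass. RAD54B, its relative, rose in HepG2 cells, from 13.0, 13.1 and 13.3 CPM in normoxia to 17.0, 19.6 and 17.6 in hypoxia, a log2 fold change of 0.46 ± 0.087 (SE, adjusted p = 0.00107). It did not pass in RCC4 cells, at 21.4, 21.9 and 21.5 CPM in normoxia and 22.7, 24.5 and 23.2 in hypoxia (log2 fold change 0.12 ± 0.06 SE, adjusted p = 0.0878). In HKC-8 cells, at 50.1, 44.5 and 47.7 CPM in normoxia and 45.8, 37.7 and 38.4 in hypoxia, it was -0.22 ± 0.10 (SE, adjusted p = 0.142), and passed with the replicate block (adjusted p = 0.0156). In the annotation used here, FSBP on the same strand shares 75.5% of the exonic bases of RAD54B. Reads inside both genes in the models used for counting would be left uncounted, and those models were not examined. The RAD54B counts may therefore come from part of the gene. RAD52, which anneals single strands, measured 12.1, 10.8 and 10.6 CPM in normoxia and 8.31, 8.01 and 7.73 in hypoxia in HepG2 cells and fell there by 0.48 on the log2 scale (SE 0.10, adjusted p = 0.00213). It did not pass in HKC-8, at 16.0, 14.3 and 16.7 CPM in normoxia and 15.6, 13.2 and 14.2 in hypoxia, or RCC4 cells, at 5.45, 4.79 and 4.66 CPM in normoxia and 4.49, 3.92 and 4.08 in hypoxia.

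BRCA1, which acts early at resected ends, its partner BARD1, PALB2, which bridges BRCA1 and BRCA2, and the helicase BLM passed in RCC4 cells only among the tests run without the block. BRCA1 rose there by 0.25 ± 0.065 (SE, adjusted p = 0.00283), PALB2 by 0.19 ± 0.059 (SE, adjusted p = 0.0101) and BLM by 0.25 ± 0.074 (SE, adjusted p = 0.00696), whereas BARD1 fell (log2 fold change -0.18 ± 0.075 SE, adjusted p = 0.0458). The BARD1 call was kept in 2 of 6 fits that left out a sample. In HKC-8 cells the blocked fit also called RAD51C (adjusted p = 0.0323) and BLM (adjusted p = 0.0214) repressed, and no other member of this set beyond those named. Whether these genes respond differently in RCC4 cells from the other lines was not tested, since the labelled exposure differs.

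The 11 Fanconi genes had 0 induced and 1 repressed in HKC-8 cells, 2 and 1 in RCC4 cells, and 0 and 4 in HepG2 cells. These were 0% and 9.09% in HKC-8 cells, beside 11.2% and 9.12% of all genes tested. In RCC4 cells they were 18.2% and 9.09%, beside 25.9% and 24.2%, and in HepG2 cells 0% and 36.4%, beside 19.9% and 19.2%. The median log2 fold change of the Fanconi genes was -0.04 (HKC-8), -0.013 (RCC4) and -0.19 (HepG2). FANCE, a bridge between the core complex and its substrate (chr6:35420115-35434881, plus strand), had the largest fall of all members in HKC-8 cells. It measured 15.8, 20.5 and 15.4 CPM in normoxia and 10.6, 12.6 and 10.7 in hypoxia there, a log2 fold change of -0.60 ± 0.14 (SE, adjusted p = 0.0192), so that it fell by 34.1%. HepG2 cells gave 12.2, 12.02 and 12.6 CPM in normoxia and 8.12, 8.69 and 8.59 in hypoxia (log2 fold change -0.54 ± 0.092 SE, adjusted p = 5.13e-04). Hypoxic samples lay below all normoxic ones in both lines. RCC4 cells gave 10.3, 11.8 and 9.34 CPM in normoxia and 10.2, 9.89 and 10.6 in hypoxia with overlapping groups (log2 fold change -0.031 ± 0.092 SE, adjusted p = 0.807), but no difference between RCC4 and the other lines was tested. The HKC-8 call was kept in 3 of 6 fits that left out a sample, and without normoxic replicate 2, the highest sample, the log2 fold change was -0.46.

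FANCA, a core complex subunit, fell in HepG2 cells from 55.5, 60.9 and 55.2 CPM in normoxia to 43.4, 47.9 and 42.4 in hypoxia, a log2 fold change of -0.36 ± 0.072 (SE, adjusted p = 0.00156). It also fell in RCC4 cells, from 29.5, 31.1 and 27.6 CPM in normoxia to 23.4, 25.5 and 24.3 in hypoxia (log2 fold change -0.26 ± 0.06 SE, adjusted p = 8.66e-04). In HKC-8 cells every hypoxic sample was above every normoxic one, at 58.7, 63.5 and 66.1 CPM in normoxia and 72.0, 67.0 and 73.0 in hypoxia, and the log2 fold change of 0.18 ± 0.079 (SE, adjusted p = 0.146) passed with the replicate block (adjusted p = 0.0411). Opposite-strand exons of ZNF276 cover 27.2% of the exonic bases of FANCA. FANCD2, the protein that the core complex ubiquitinates, and FANCG fell in HepG2 cells (log2 fold change -0.19 ± 0.067 SE, adjusted p = 0.0339, and log2 fold change -0.26 ± 0.077 SE, adjusted p = 0.0155). Their calls were kept in 2 and 4 of 6 fits that left out a sample. FANCI, the partner of FANCD2, and the helicase BRIP1 rose in RCC4 cells (log2 fold change 0.13 ± 0.041 SE, adjusted p = 0.0116, and log2 fold change 0.28 ± 0.06 SE, adjusted p = 5.37e-04). FANCB, FANCC, FANCF, FANCL and FANCM were called in no line without the block. With the block, FANCM fell (adjusted p = 0.00158) and FANCL (adjusted p = 0.0377) and BRIP1 (adjusted p = 0.00615) rose in HKC-8 cells. The log2 fold changes of FANCM lay between -0.36 in HKC-8 and 0.028 in RCC4 cells.

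The 6 mismatch repair genes had 0 induced and 0 repressed in HKC-8 cells, 2 and 0 in RCC4 cells, and 1 and 1 in HepG2 cells. The median log2 fold change was -0.081 (HKC-8), 0.025 (RCC4) and -0.086 (HepG2). MLH3, a MutL subunit that also acts in meiosis, rose in 2 of the lines. In RCC4 cells it measured 10.4, 10.3 and 10.4 CPM in normoxia and 14.3, 15.1 and 14.4 in hypoxia, a log2 fold change of 0.50 ± 0.076 (SE, adjusted p = 8.91e-06). HepG2 cells gave 22.2, 20.5 and 22.4 CPM in normoxia and 27.3, 30.4 and 28.7 in hypoxia (log2 fold change 0.41 ± 0.075 SE, adjusted p = 8.63e-04). The groups were apart in both. In HKC-8 cells, at 30.2, 31.3 and 32.8 CPM in normoxia and 36.7, 31.5 and 40.3 in hypoxia, hypoxic replicate 2 lay within the normoxic range and the change of 0.20 ± 0.11 (SE, adjusted p = 0.196) did not pass. MSH3, which recognises longer loops, rose in RCC4 cells (log2 fold change 0.34 ± 0.056 SE, adjusted p = 2.63e-05), with log2 fold changes of -0.05 in HKC-8 and -0.022 in HepG2 cells. PMS1 fell slightly in HepG2 cells (log2 fold change -0.19 ± 0.063 SE, adjusted p = 0.0286), a call kept in 3 of 6 fits that left out a sample. MSH6, the partner that recognises single mismatches, the exonuclease EXO1 and PMS2 were called in no line, except that MSH6 passed in HKC-8 cells with the block (log2 fold change -0.17, adjusted p = 0.0382). Opposite-strand exons of FBXO11 cover 43.0% of the exonic bases of MSH6. PMS2, CHEK2 and FANCD2 have near-identical copies elsewhere in the genome, and since fragments that map to several places were removed, their counts are uncertain.

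Base excision and single-strand break repair had 0 induced and 2 repressed in HKC-8 cells, 2 and 5 in RCC4 cells, and 1 and 2 in HepG2 cells, with 9 of its 10 genes tested in RCC4 cells. The median log2 fold change was -0.16 (HKC-8), -0.22 (RCC4) and -0.057 (HepG2). The falls included 2 of the glycosylases that remove oxidised bases and the ligase LIG3, which seals nicks in nuclear and mitochondrial DNA. LIG3 measured 44.2, 48.1 and 43.2 CPM in normoxia and 30.6, 34.0 and 31.3 in hypoxia in HKC-8 cells, a log2 fold change of -0.50 ± 0.087 (SE, adjusted p = 0.00585), so that it fell by 29.0%. RCC4 cells gave 18.6, 19.9 and 17.9 CPM in normoxia and 14.8, 14.6 and 15.6 in hypoxia (log2 fold change -0.32 ± 0.068 SE, adjusted p = 4.23e-04). Both lines showed a clear gap between groups, and in HepG2 cells, at 55.3, 50.05 and 54.3 CPM in normoxia and 48.0, 48.1 and 48.7 in hypoxia, the hypoxic samples were also all lower, but the change of -0.14 ± 0.062 (SE, adjusted p = 0.0881) did not pass. Opposite-strand exons of RFFL cover 43.9% of the exonic bases of LIG3. NTHL1, a glycosylase for oxidised pyrimidines, measured 20.6, 19.3 and 16.6 CPM in normoxia and 13.1, 15.6 and 12.8 in hypoxia in HKC-8 cells (log2 fold change -0.44 ± 0.13 SE, adjusted p = 0.0379). In RCC4 cells it measured 22.6, 23.4 and 22.2 CPM in normoxia and 17.6, 17.8 and 17.3 in hypoxia (log2 fold change -0.37 ± 0.061 SE, adjusted p = 2.92e-05), and in HepG2 cells 26.5, 26.7 and 22.4 CPM in normoxia and 20.8, 21.4 and 22.9 in hypoxia (log2 fold change -0.22 ± 0.088 SE, adjusted p = 0.0645). The HepG2 groups overlapped and that change did not pass, and the HKC-8 call was kept in 2 of 6 fits that left out a sample.

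OGG1, the glycosylase for oxidised guanine, fell in RCC4 (log2 fold change -0.32 ± 0.071 SE, adjusted p = 6.00e-04) and HepG2 cells (log2 fold change -0.35 ± 0.075 SE, adjusted p = 0.0025), and PARP2 fell in the same lines (-0.22 and -0.27). UNG, which removes uracil, fell in RCC4 cells (log2 fold change -0.23 ± 0.035 SE, adjusted p = 7.89e-06). PARP1, the main nick sensor, rose there by 0.11 ± 0.037 (SE, adjusted p = 0.0121) and the replicative ligase LIG1 by 0.14 ± 0.047 (SE, adjusted p = 0.0167). Without normoxic replicate 3 the PARP1 change was 0.069 and did not pass, and the LIG1 call was kept in 3 of 6 such fits. In HKC-8 cells the blocked fit also called XRCC1, the scaffold of nick repair (adjusted p = 0.00601), PARP2 (adjusted p = 0.0122) and OGG1 (adjusted p = 0.0172) repressed and LIG1 induced (adjusted p = 0.0344). APEX1, the endonuclease for abasic sites, was called in no line, with log2 fold changes of -0.067 in HKC-8 cells, 0.0015 in RCC4 cells and 0.066 in HepG2 cells. NEIL1, a glycosylase active on oxidised bases in open DNA, was the 1 gene of this set induced in HepG2 cells. It measured 2.72, 1.86 and 1.81 CPM in normoxia and 3.90, 2.93 and 3.57 in hypoxia there, from counts of 76 to 164 (log2 fold change 0.70 ± 0.19 SE, adjusted p = 0.0117). Without hypoxic replicate 1 the change was 0.60 with adjusted p = 0.0567. In HKC-8 cells NEIL1 measured 0.743, 0.554 and 0.968 CPM in normoxia and 1.34, 0.665 and 1.05 in hypoxia with overlapping groups, and in RCC4 cells it had 0 counts in all samples. Opposite-strand exons of MAN2C1 cover 40.2% of its exonic bases.

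**Figure D2:**
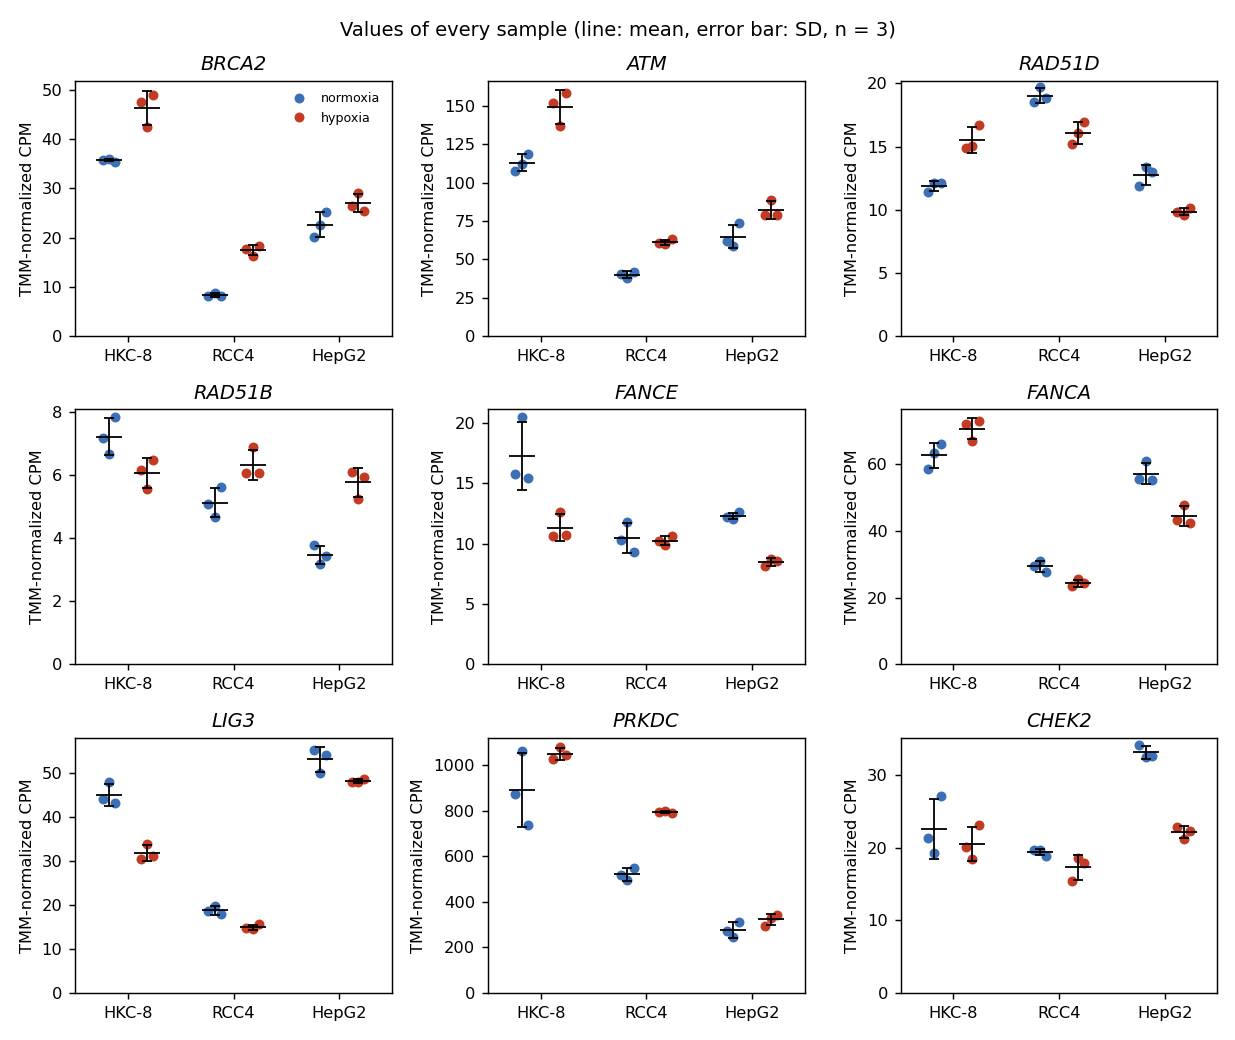
TMM-normalized CPM (vertical axis) of 9 genes in every sample (points, blue for normoxia and red for hypoxia), with the mean and SD of 3 samples, in 3 cell lines. BRCA2 and ATM were higher in hypoxia in each line without overlap, RAD51D was higher in HKC-8 and lower in RCC4 and HepG2 cells, and the PRKDC groups overlapped in HKC-8 and HepG2 cells.

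The 5 end joining genes had 0 induced and 3 repressed in HKC-8 cells, 1 and 2 in RCC4 cells, and 1 and 0 in HepG2 cells. Their median log2 fold change was -0.24 (HKC-8), -0.051 (RCC4) and -0.086 (HepG2). PRKDC, the catalytic subunit of the DNA-dependent protein kinase, rose in RCC4 cells, from 518, 494 and 549 CPM in normoxia to 794, 798 and 791 in hypoxia, a log2 fold change of 0.62 ± 0.035 (SE, adjusted p = 1.10e-12) or a rise of 53.2%. In HepG2 cells it measured 274, 244 and 311 CPM in normoxia and 295, 331 and 342 in hypoxia (log2 fold change 0.22 ± 0.083 SE, adjusted p = 0.046), with overlapping groups and a call kept in 2 of 6 fits that left out a sample. In HKC-8 cells, at 876, 1063 and 736 CPM in normoxia and 1027, 1079 and 1045 in hypoxia, the change of 0.24 ± 0.13 (SE, adjusted p = 0.207) passed with the block (adjusted p = 0.0284) and without normoxic replicate 2 (log2 fold change 0.39, adjusted p = 0.0477). XRCC5 and XRCC6, the Ku subunits that hold the broken ends and recruit PRKDC, fell in HKC-8 cells. The log2 fold change was -0.31 ± 0.076 (SE, adjusted p = 0.0212) for XRCC5 and -0.24 ± 0.075 (SE, adjusted p = 0.049) for XRCC6. The groups were apart for both, though the XRCC6 call was kept in 1 of 6 fits that left out a sample. In RCC4 cells XRCC5 fell by 0.12 on the log2 scale (adjusted p = 0.00268), and XRCC6 did not pass (log2 fold change -0.051 ± 0.032 SE, adjusted p = 0.189).

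LIG4, the ligase of end joining, measured 28.1, 26.9 and 23.7 CPM in normoxia and 19.9, 19.3 and 19.7 in hypoxia in HKC-8 cells (log2 fold change -0.42 ± 0.10 SE, adjusted p = 0.0188). RCC4 cells gave 21.8, 22.2 and 22.04 CPM in normoxia and 18.6, 17.4 and 18.4 in hypoxia (log2 fold change -0.27 ± 0.062 SE, adjusted p = 7.92e-04). It fell in both without overlap, and in HepG2 cells, at 10.9, 12.8 and 13.6 CPM in normoxia and 11.0, 11.3 and 9.18 in hypoxia, the groups overlapped and the change of -0.24 ± 0.11 (SE, adjusted p = 0.117) did not pass. XRCC4, which binds LIG4, was called in no line.

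The 7 damage sensing genes had 1 induced and 1 repressed in HKC-8 cells, 2 and 0 in RCC4 cells, and 2 and 2 in HepG2 cells, and the kinases ATM and ATR moved in opposite directions in HKC-8 and HepG2 cells. Their median log2 fold change was -0.10 (HKC-8), 0.041 (RCC4) and -0.088 (HepG2). ATM, which responds to double-strand breaks (chr11:108093771-108239829, plus strand), rose in all 3 lines. It measured 108, 112 and 119 CPM in normoxia and 152, 137 and 158 in hypoxia in HKC-8 cells, a log2 fold change of 0.40 ± 0.083 (SE, adjusted p = 0.0109). In RCC4 cells it measured 40.5, 37.5 and 42.0 CPM in normoxia and 60.3, 59.8 and 63.0 in hypoxia (log2 fold change 0.62 ± 0.05 SE, adjusted p = 4.96e-10), and in HepG2 cells 62.1, 58.9 and 73.3 CPM in normoxia and 78.8, 88.9 and 79.0 in hypoxia (log2 fold change 0.34 ± 0.081 SE, adjusted p = 0.00434). No groups overlapped, and the rise was 32.4%, 53.2% and 27.0%. The HKC-8 call was kept in 4 of 6 fits that left out a sample, and the other calls in all 6. ATR, which responds to stalled replication forks, fell in HKC-8 cells (log2 fold change -0.33 ± 0.073 SE, adjusted p = 0.0149) and HepG2 cells (log2 fold change -0.39 ± 0.092 SE, adjusted p = 0.0042), with a log2 fold change of 0.0022 ± 0.045 (SE, adjusted p = 0.973) in RCC4 cells. The HKC-8 call of ATR was kept in 3 of 6 fits that left out a sample.

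RAD50, part of the complex that tethers broken ends and activates ATM, rose in RCC4 cells from 75.2, 72.8 and 70.9 CPM in normoxia to 111, 99.6 and 101 in hypoxia (log2 fold change 0.51 ± 0.045 SE, adjusted p = 1.70e-09). It also rose in HepG2 cells, from 65.98, 59.2 and 73.0 CPM in normoxia to 81.2, 85.2 and 77.7 in hypoxia (log2 fold change 0.30 ± 0.074 SE, adjusted p = 0.00561). In HKC-8 cells, at 129, 125 and 124 CPM in normoxia and 125, 119.9 and 142 in hypoxia, the groups overlapped (log2 fold change 0.036 ± 0.083 SE, adjusted p = 0.791). Its partners MRE11A and NBN were called in no line, with log2 fold changes between -0.17 (NBN in HepG2 cells) and 0.09 (MRE11A in RCC4 cells). CHEK2, the kinase downstream of ATM, had the largest fall of any member in HepG2 cells, from 34.2, 32.5 and 32.7 CPM in normoxia to 22.9, 21.2 and 22.3 in hypoxia, a log2 fold change of -0.58 ± 0.07 (SE, adjusted p = 2.82e-05). It measured 19.6, 19.6 and 18.9 CPM in normoxia and 15.4, 18.6 and 17.9 in hypoxia in RCC4 cells (log2 fold change -0.16 ± 0.072 SE, adjusted p = 0.0668) and 21.3, 19.2 and 27.1 CPM in normoxia and 20.1, 18.4 and 23.05 in hypoxia in HKC-8 cells (log2 fold change -0.13 ± 0.14 SE, adjusted p = 0.555), neither of which passed. CHEK1, downstream of ATR, was called in no line without the block and fell in HKC-8 cells with it (log2 fold change -0.21, adjusted p = 0.0135).

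The labels give HKC-8 and HepG2 cells the same exposure, although the titles of hypoxic HKC-8 cells read 0.1% oxygen. The difference between the responses of these lines was tested directly, as an interaction in 1 fit of 12 samples. Oxygen level by title, donor, tissue, library depth and the lane labels differ with the line. Their parts in a difference of response cannot be told apart here. The response was higher in HepG2 than in HKC-8 cells for 3 of the 52 genes and lower for 2, where 5.02% of the 15046 genes tested were higher and 4.28% lower. RAD51B differed by 0.98 ± 0.19 (SE, adjusted p = 0.00358) on the log2 scale, from -0.25 in HKC-8 to 0.73 in HepG2 cells. RAD54B differed by 0.68 ± 0.13 (SE, adjusted p = 0.00434), from -0.22 to 0.46. RAD51D differed the other way, by -0.76 ± 0.14 (SE, adjusted p = 0.0026), and FANCA by -0.53 ± 0.11 (SE, adjusted p = 0.00554). RAD51D was called in both lines, in opposite directions, and each of the 4 differences passed in all 12 fits that left out a sample. In HKC-8 cells RAD51B did not pass with or without the block (adjusted p = 0.0785 with it in edgeR), while RAD54B and FANCA passed only with it. LIG3 fell in HKC-8 cells and was -0.14 in HepG2 cells, a difference of 0.36 ± 0.10 (SE, adjusted p = 0.0456) that was kept in 2 of 12 such fits, with adjusted p = 0.0227 to 0.113. For XRCC2, which passed in HepG2 cells alone, the difference of -0.47 ± 0.14 (SE, adjusted p = 0.0546) did not pass, nor did that of CHEK2, -0.45 ± 0.17 (SE, adjusted p = 0.113). With the replicate number of each line as a block, 5 members were higher and 4 lower, against 11% and 9.06% of all genes, and both of these passed, XRCC2 at -0.46 ± 0.11 (SE, adjusted p = 0.0109) and CHEK2 at -0.46 ± 0.10 (SE, adjusted p = 0.00632). The others gained were XRCC1 at 0.38 ± 0.10 (SE, adjusted p = 0.014) and MSH6 at 0.27 ± 0.085 (SE, adjusted p = 0.0389), and all 5 members called without the block were called with it.

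**Figure D3:**
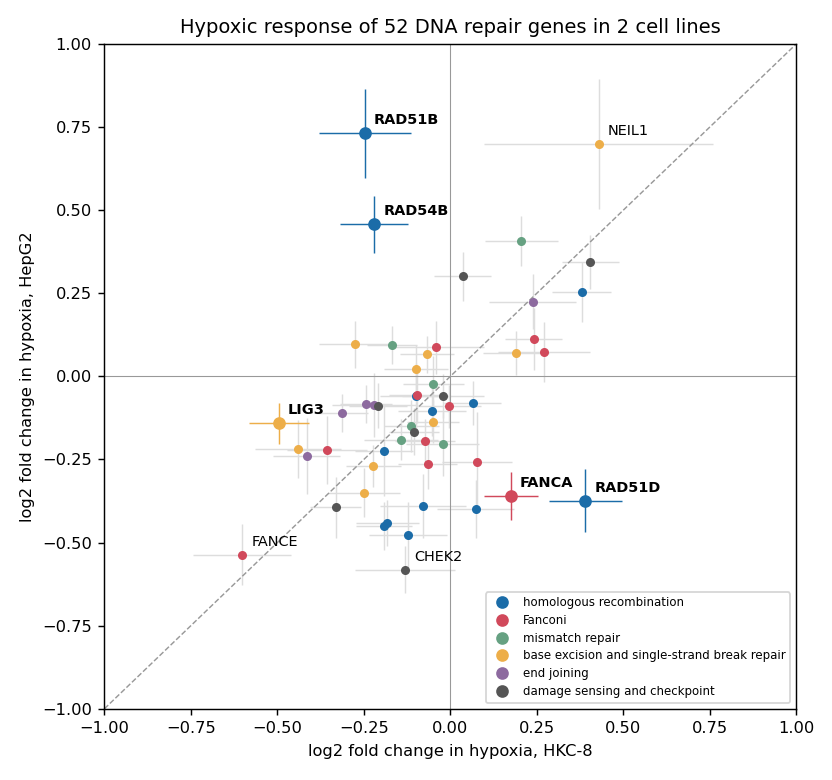
Log2 fold change in hypoxia in HepG2 (vertical axis) against HKC-8 cells (horizontal axis) of the 52 genes, with SE, coloured by pathway and with a dashed line of equal response. The 5 genes in bold differed between the lines at an adjusted p under 0.05, with RAD51B and RAD54B above the line and RAD51D and FANCA below it.

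In normoxia more repair genes were lower than higher in RCC4 and in HepG2 cells when set beside HKC-8 cells. Called at 2-fold and an adjusted p under 0.05, 19 members were lower and 1 higher in RCC4 than in HKC-8 cells, where 23.2% of the 14806 genes tested were lower and 23.2% higher. Between HepG2 and HKC-8 cells 18 were lower and 2 higher, against 20.8% and 26.3% of all genes. Between HepG2 and RCC4 cells 10 were higher and 4 lower, against 28.1% and 21.5%. The median log2 difference of the members was -0.77, -0.63 and 0.012 in these 3 comparisons, beside -0.014, 0.021 and 0.11 over all genes. Donor and library depth differ with the line, as do the labels of lanes and of replacement libraries. Tissue differs for HepG2 cells only, since HKC-8 and RCC4 are both labelled as kidney lines. Normoxic libraries held 81597396 to 84593123 counts for HKC-8, 42045335 to 49594033 for RCC4 and 41511343 to 43957815 for HepG2. These differences cannot be told apart here, and growth was not measured here. The comparisons also share their samples.

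Recombination and Fanconi genes accounted for 13 of the 19 lower members in RCC4 cells. There the log2 difference from HKC-8 cells was -2.45 ± 0.10 (SE) for XRCC2, -2.41 ± 0.11 for FANCB, -2.17 ± 0.11 for FANCM, -2.14 ± 0.13 for BLM, -2.13 ± 0.10 for BRCA1 and -2.09 ± 0.10 for BRCA2. FANCB, a core complex subunit, had the largest difference of any member between HepG2 and HKC-8 cells, -2.16 ± 0.11. It measured 23.01, 23.02 and 23.8 CPM in normoxic HKC-8, 4.603, 3.97 and 4.47 in RCC4 and 5.24, 4.63 and 5.51 in HepG2 cells. FANCF, its partner in the core complex, was the exception and was higher in RCC4 than in HKC-8 cells by 1.81 ± 0.094 and in HepG2 cells by 1.04 ± 0.094. NEIL1 had the largest difference in both comparisons with RCC4 cells, where all 6 libraries had 0 counts. Against a floor of 3 counts per library, its normoxic level was at least 10.8-fold higher in HKC-8 and at least 30.3-fold higher in HepG2 cells.

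**Figure D4:**
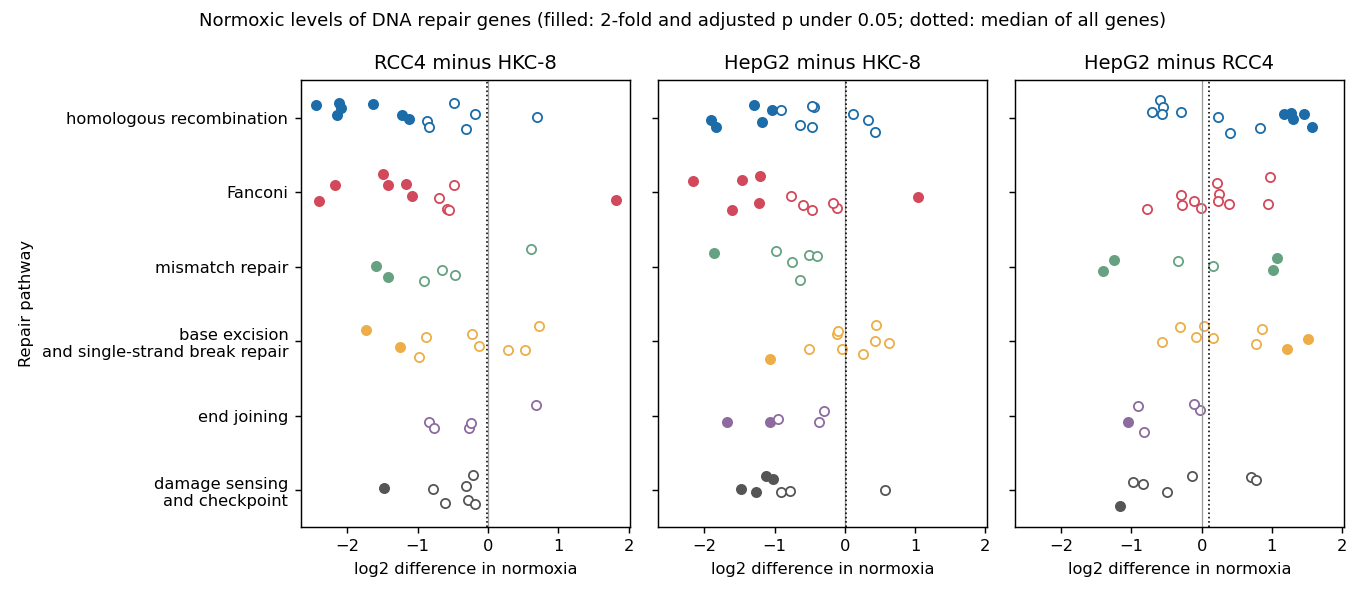
Log2 difference in normoxia between 2 lines (horizontal axis) for 51 of the genes (points, spread vertically within each pathway), without NEIL1, which had 0 counts in RCC4 cells. Filled points passed at 2-fold and an adjusted p under 0.05, and the dotted line is the median of all genes; the filled recombination and Fanconi points lie to the left in both comparisons with HKC-8 cells, except for FANCF.

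Per kilobase of the main annotated transcript, levels spanned a wide range within each pathway. The Ku subunits and the abundant base excision enzymes led in normoxic HKC-8 cells, with 606 ± 14.7 CPM per kilobase (SD, n = 3) for XRCC6, 270.3 ± 7.78 for XRCC5, 187 ± 3.56 for APEX1 and 114 ± 8.62 for PARP1. XRCC6, XRCC5 and APEX1 led in this order in all 3 lines, and UNG came next in RCC4 (83.5 ± 0.545) and HepG2 cells (56.2 ± 4.90), where in HepG2 cells it and PARP1 (53.5 ± 5.62) did not differ beyond their spread. At the other end were NEIL1, at 0.204 ± 0.0558, RAD51D, at 1.19 ± 0.0385, and BRCA2, at 2.99 ± 0.0188 in HKC-8 cells. BRCA2 was at 0.696 ± 0.0281 in RCC4 and 1.90 ± 0.211 in HepG2 cells. Among the damage sensors in HKC-8 cells NBN was the most abundant, at 52.2 ± 1.13, followed by CHEK1 at 26.6 ± 0.758, and ATM was the least abundant there, at 8.73 ± 0.424, while in HepG2 cells ATR was, at 3.92 ± 0.508.

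A further 76 repair genes in 5 other lists gave 2 induced and 10 repressed of 75 tested in HKC-8 cells, 24 and 17 of 74 in RCC4 cells and 9 and 25 of 76 in HepG2 cells. Nucleotide excision repair, which removes bulky lesions, had 0 induced and 2 repressed of 17 tested in HKC-8 cells, 6 and 4 of 16 in RCC4 cells and 4 and 5 of 17 in HepG2 cells. The other recombination and crosslink genes had 0 induced and 1 repressed of 13 in HKC-8 cells, 4 and 2 in RCC4 cells and 1 and 8 in HepG2 cells. Their largest fall in each line was UBE2T, the ubiquitin-conjugating enzyme that modifies FANCD2, with log2 fold changes of -0.40 ± 0.079 in HKC-8 cells, -0.24 ± 0.06 in RCC4 cells and -0.60 ± 0.091 in HepG2 cells. Translesion synthesis and direct reversal had 1 induced and 1 repressed of 10 tested in HKC-8 cells, 4 and 2 of 10 in RCC4 cells and 1 and 2 of 10 in HepG2 cells. Its largest rise in each line was POLI, a polymerase that copies past damaged bases, at 0.67 ± 0.20, 0.68 ± 0.089 and 0.81 ± 0.10. The other break signalling genes had 1 induced and 2 repressed of 17 tested in HKC-8 cells, 5 and 3 of 17 in RCC4 cells and 1 and 3 of 18 in HepG2 cells, led by RIF1, which protects ends from resection, at 1.02 ± 0.056 in RCC4 cells and by RAD9A of the checkpoint clamp at -0.88 ± 0.11 in HepG2 cells. The other base excision and end joining genes had 0 induced and 4 repressed of 18 tested in HKC-8 cells, 5 and 6 of 18 in RCC4 cells and 2 and 7 of 18 in HepG2 cells, with falls of POLB, the gap-filling polymerase, in HepG2 cells (-0.69 ± 0.084) and of POLM in RCC4 cells (-0.66 ± 0.10).

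Cell cycle genes changed in both directions as well. Over all genes tested, 11.2% were induced and 9.12% repressed in HKC-8, 25.9% and 24.2% in RCC4, and 19.9% and 19.2% in HepG2 cells. Replication and S phase genes had 3 induced and 4 repressed of 35 tested in HKC-8 cells, 5 and 15 of 35 in RCC4 cells and 3 and 13 of 35 in HepG2 cells, with PCNA, the replication clamp, at -0.63 ± 0.079 in HepG2 and MCM5, a subunit of the replicative helicase, at -0.57 ± 0.10 in HKC-8 cells. Mitosis genes had 0 induced and 6 repressed of 22 tested in HKC-8 cells, 11 and 6 of 22 in RCC4 cells and 1 and 11 of 22 in HepG2 cells. Their median log2 fold changes were -0.095 (HKC-8), -0.072 (RCC4) and -0.11 (HepG2) for S phase and -0.21 (HKC-8), 0.14 (RCC4) and -0.16 (HepG2) for mitosis. TOP2A, which untangles chromosomes, rose in RCC4 cells (0.51 ± 0.038) and CDC20, which activates anaphase, fell there (-0.33 ± 0.038). The part of cell cycle phase in the changes of the repair genes was not tested.

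Genes with the longest transcripts rose more often than those with the shortest, among the repair genes as among all genes. Ranked by the length of the main annotated transcript, and cut into 5 groups of equal size, the shortest group of all genes tested had a median log2 fold change of -0.06 (HKC-8), -0.10 (RCC4) and -0.089 (HepG2), and the longest group 0.055, 0.14 and 0.074. In RCC4 cells 46.5% of the longest group were induced and 12.4% repressed, against 12.5% and 36.2% of the shortest. The members in the longest group, 12 in each line, included 3 of the 3 induced genes in HKC-8 cells, 7 of 14 in RCC4 cells and 5 of 8 in HepG2 cells. The same group held 2 repressed members in each line. Of all genes in it, 15.3% were induced and 7.43% repressed in HKC-8 cells, and 26.1% and 11.3% in HepG2 cells. The next longest group held 0 induced of 15 members in HKC-8 and in HepG2 cells, and 4 of 13 in RCC4 cells. Spearman's rho of length and log2 fold change across genes, which share libraries and are not independent, was 0.118, 0.275 and 0.161 over all genes and 0.405, 0.426 and 0.194 over the members tested. BRCA2, ATM, PRKDC and RAD50 have main transcripts of 11954, 12915, 13458 and 8272 bases. RAD51D, LIG3 and ATR, which fell in 1 line or more, have 9966, 8382 and 8158 bases, so that not all long members rose.

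The fits were therefore repeated with each sample's trend of expression against transcript length as an offset, an alternative chosen after the data were seen. ATM remained induced in all 3 lines, at 0.31 with adjusted p = 0.0257 in HKC-8 cells, 0.39 with adjusted p = 4.30e-07 in RCC4 cells and 0.22 with adjusted p = 0.0066 in HepG2 cells. BRCA2 remained induced in HKC-8 (0.29 with adjusted p = 0.0303) and RCC4 cells (0.86 with adjusted p = 2.70e-09) but not in HepG2 cells (0.14 with adjusted p = 0.196). PRKDC was 0.38 with adjusted p = 1.46e-09 in RCC4 cells and lost its call in HepG2 cells (0.10 with adjusted p = 0.175), and calls were also lost in RCC4 cells for BRCA1 (0.25 without and 0.13 with adjusted p = 0.0986 with the offset), FANCI (0.13 and 0.083 with adjusted p = 0.095) and BRIP1 (0.28 and 0.13 with adjusted p = 0.0709). In HKC-8 cells those of RAD51D (0.39 and 0.31 with adjusted p = 0.0561) and XRCC6 (-0.24 and -0.20 with adjusted p = 0.0637) were lost. The further falls of LIG3, FANCM and NBN passed in HepG2 cells, beside a rise of APEX1, and ATR (-0.14 with adjusted p = 0.0103) and NBN fell and APEX1 rose in RCC4 cells. FANCM fell in HKC-8 cells (-0.41 with adjusted p = 0.035). In all, 2 members were induced and 7 repressed in HKC-8 cells, 12 and 15 in RCC4 cells, and 7 and 18 in HepG2 cells with this offset. The part of RNA quality, fragment size or transcript length itself in these changes was not tested.

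**Figure D5:**
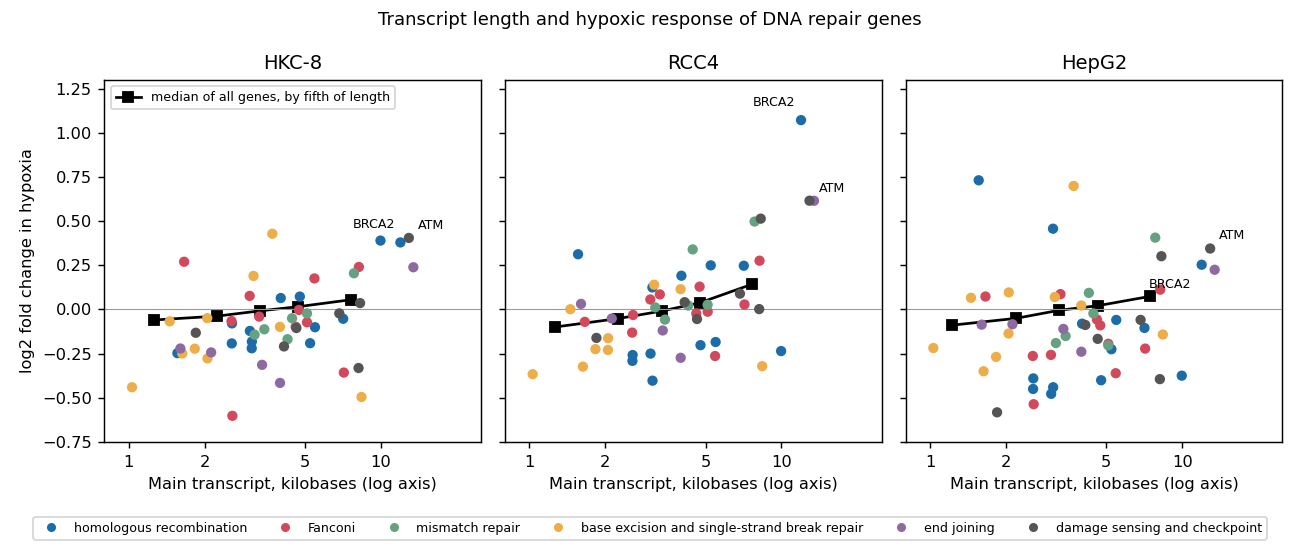
Log2 fold change in hypoxia (vertical axis) against the length of the main transcript in kilobases (horizontal log axis) for the members tested (points, by pathway) in 3 cell lines. Black squares are the medians of all genes tested in 5 groups of length, which rise from -0.10 to 0.14 in RCC4 cells; BRCA2 lies above them in each line.

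Promoter letters did not separate the directions in a single way. E2F-type letters were in 0 of 6 promoters of members induced in HepG2 cells and in 9 of 15 of those repressed there, but in 5 of 12 and 5 of 12 in RCC4 cells and in 1 of 3 and 2 of 6 in HKC-8 cells. HIF core letters were in 5 of 6 induced and 14 of 15 repressed members in HepG2, 7 of 12 and 12 of 12 in RCC4, and 3 of 3 and 6 of 6 in HKC-8 cells, so that they were at least as frequent among repressed as among induced members in each line. These counts rest on 3 to 15 promoters each and carry no test.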

How the data were processed

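PolyA+ RNA libraries (ScriptSeq v2) of 18 samples were sequenced by the authors, who trimmed reads, aligned them to GRCh37/hg19 and counted fragments per UCSC gene with HTSeq in intersection-strict mode, with fragments that mapped to several places removed. The submitters' processing notes name Trim Galore 0.3.3, Bowtie 1.0.0, SAMtools 0.1.19 and a TopHat2 release. The deposited values are raw counts per gene symbol, and the strand setting of the counting is not given in the sources used here.

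Each cell line was tested on its own with edgeR 4.0.16 (R 4.3.3): filterByExpr, TMM factors and the quasi-likelihood test of hypoxia against normoxia, with Benjamini-Hochberg adjustment over all genes tested and a threshold of 0.05. SE was taken as the log2 fold change over the square root of F. The difference between the HepG2 and HKC-8 responses was an interaction term in 12 samples, and RCC4 was left out because its labelled exposure differs. Normoxic lines were compared in 9 samples and called also at 2-fold. Lengths and places come from a GRCh37 annotation and promoters from RefSeq (GRCh38.p14 table), matched in GRCh37 by exact sequence. The steps were tested on simulated data.

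The numbers of the HKC-8 replicates, taken from the sample titles, were checked for pairing by the correlation of same-numbered deviations from the group means. It was 0.109, 0.453 and 0.447, all above 0.1, so values with the number as a block are printed where a call changes. For number 1 the highest correlation with an unlike number was 0.116, so its pairing is not shown by these values. No 2 samples of a group held identical values or differed by less than sampling noise, and intervals of depth cover counting error only.

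The members and gene lists were chosen with earlier results of these data known. Values of every sample are given for members called in the same direction in all 3 lines, for the 6 largest called changes in a line, for the 4 largest called differences between HKC-8 and HepG2, and for the largest normoxic difference. Of each other list the largest called rise and fall could be named. DESeq2 1.42.0, median-of-ratios factors, other count filters, the block, 1 fit of all 18 samples and each sample left out in turn were tried, and a length offset was added after the data were seen.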

Additional observations from a re-analysis of the deposited data

Results flagged for a closer look

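For 5 of the 52 genes the response to hypoxia differed between HepG2 and HKC-8 cells (interaction test in edgeR, adjusted p under 0.05). Of all 15046 genes tested, 5.02% had a higher and 4.28% a lower response in HepG2 cells. The difference is the HepG2 minus the HKC-8 log2 fold change. RAD51B differed by 0.98 and RAD54B, a motor protein of strand exchange, by 0.68, with a rise in HepG2 cells in both. RAD51D differed by -0.76 and FANCA of the Fanconi core complex by -0.53, with a fall in HepG2 cells in both. The ligase LIG3 differed by 0.36, with a fall in HKC-8 cells, a call kept in 2 of 12 fits that left out a sample.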

How the results depend on the processing

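Of 60 called log2 fold changes of members, 60 kept their call with median-of-ratios factors, 60 with the replicate block, 59 each with DESeq2, with no filter on low counts and with at least 10 counts in every sample, 53 with the length offset and 46 in 1 fit of all 18 samples, and none changed direction under these alternatives. Over the fits that left out a sample, 299 of 360 kept their call. With the replicate block HKC-8 had 8 induced and 16 repressed members, and the fit of all 18 samples gave 16 repressed members there and 7 induced members in RCC4 cells, where the main fit gave 14. Leaving out a sample gave 0 to 3 induced and 1 to 8 repressed members in HKC-8 cells. DESeq2 called 5 members with a higher response in HepG2 than in HKC-8 cells, and the replicate block 5 higher and 4 lower, while leaving out a sample gave 2 to 4 lower, with the 4 without HKC-8 normoxic replicate 3. Members higher in normoxic HepG2 than HKC-8 cells numbered 1 with no filter on low counts and 1 with at least 10 counts in every sample, and 1 to 2 with a sample left out, with the 1 without normoxic replicate 2 or 3 of HKC-8 or normoxic replicate 1 or 2 of HepG2. The causes of these changes were not tested. Same-numbered deviations correlated at -0.0103, 0.0333 and 0.0147 in RCC4 and at 0.165, 0.0617 and 0.184 in HepG2 cells. Since not all passed 0.1 in either line, the numbers are not taken to pair those samples. In HepG2 cells unlike numbers correlated at no more than 0.0234, so pairing there remains possible. Depth limits NEIL1 most, which had 45 to 107 counts in HKC-8 and 76 to 164 in HepG2 cells.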
